A study of Mus musculus with 2 samples.

Results

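Unpaired IAPLTR1a_Mm LTRs are long terminal repeats (LTRs) of 1 subfamily of mouse intracisternal A particle (IAP) elements for which no partner LTR of the same subfamily and strand was listed close by. All listed loci were ordered by chromosome and start, and consecutive loci of 1 subfamily and strand with 1000 to 8000 bp between them were taken as a pair, from left to right, each locus used once. Of the 4799 LTRs with a methylation level, 1234 were IAPLTR1a_Mm copies, and 606 of those were in no pair. The other copies formed 314 pairs, which gives 314 LTRs at the upstream end and 314 at the downstream end of a candidate provirus. The rule used names, positions and strands only, not the levels, but the members were chosen with earlier results of these data known. Methylation was measured in AB2.2 cells, which are embryonic stem (ES) cells from strain 129, and in Neuro2A cells, which come from a brain neuroblastoma and are labelled as strain A albino. Each line gave 1 library, and the labels name no treatment. There is thus no replicate and no p-value for any difference, and SDs below are spreads over loci. The number of reads behind each level is unknown. The lines differ in strain as well as in cell type, so these cannot be told apart, and whether every LTR has an identical copy in both lines was not tested. The labelled cell types could not be set against marker genes, because LTR methylation was the only readout.

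IAPs are endogenous retroviruses of the ERVK class that can still copy themselves in the mouse genome. A complete copy carries an LTR at each end, and the upstream LTR holds the promoter that drives transcription of the element. Recombination between the ends of a copy can remove the internal part and leave a solo LTR. Mouse cells commonly keep these promoters silent by methylation of their CpG sites, and some single copies are known to vary in methylation and to influence genes nearby. An unpaired locus can be a solo LTR, or it can be one end of a copy whose other end is not among the listed loci. The names do not separate these cases.

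Unpaired IAPLTR1a_Mm LTRs were highly methylated in both lines. In ES cells the lowest level was 48.7%, the median 89.8% and the highest 96.2% (mean 87.5%, n = 606 loci, with an SD over loci of 6.59). In Neuro2A cells the lowest level was 0.4%, the median 84.95% and the highest 98.1% (mean 81.6%, with an SD over loci of 11.1). ES levels thus had a short lower tail and Neuro2A levels a long one. ES cells had 295 loci at 90% or above, or 48.7% of them, and Neuro2A cells had 48, or 7.92%. The most common range of levels, in steps of 5 points, was 90 to 95% in ES cells with 287 loci and 85 to 90% in Neuro2A cells with 255 loci. At 80% or above lay 527 loci in ES cells (87.0%, exact Clopper-Pearson 95% interval over loci 84.0 to 89.5) and 414 in Neuro2A cells (68.3%, interval 64.5 to 72.0). No locus was under 20% in ES cells. In Neuro2A cells 5 loci were (0.83%), a share near the 0.98% of all 4799 loci. Of these 5, 4 were at 80% or above in ES cells. These intervals treat loci as draws and hold no error of sequencing or culture.

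The ES library gave the higher level at 538 of the 606 loci (88.8%) and the Neuro2A library at 65, with 3 ties. The median difference, ES minus Neuro2A, was 4.9 percentage points, with quartiles of 2.2 and 7.3. Over all 4799 loci the median difference was 6.1 points. Relative to that shift the unpaired IAPLTR1a_Mm loci stood at -1.2 points, so they were closer between the libraries than the median locus of the series. The loci most like them had similar medians. The median difference was 4.8 points at paired downstream LTRs, 5.2 points at paired upstream LTRs and 5.0 points at unpaired LTRs of the related IAPLTR1_Mm subfamily. For 295 of the 606 loci (48.7%) the libraries were within 5 points of each other. Opposite differences cancel in a median. Locus by locus, paired upstream LTRs were not closer than the series, with 31.2% within 5 points against 32.3% of all loci. An ES excess of at least 20 points was found at 16 loci, or 2.64% of them (interval 1.52 to 4.25), against 14.9% of all loci in the series. The reverse excess of at least 20 points was found at 0 unpaired IAPLTR1a_Mm loci, against 1.58% of all loci. The loci on each side of that limit had differences of 21.3 and 19.8 points. Across the 606 loci, Spearman's rho between the lines was 0.69 and Pearson's r 0.58. These coefficients describe loci measured in the same pair of libraries.

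**Figure D1:**
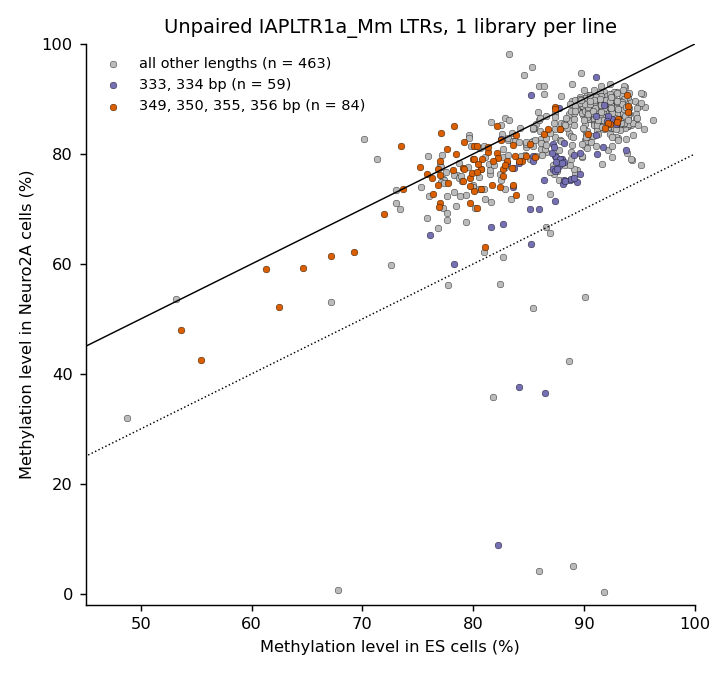
Each point is 1 of the 606 unpaired IAPLTR1a_Mm LTRs, with its methylation level in the ES library on the x axis and in the Neuro2A library on the y axis, both in percent; the solid line marks equal levels and the dotted line an ES excess of 20 points. Most loci lie just under the solid line, 16 lie below the dotted line, and the loci of the 4 lengths drawn in orange (355 bp, 356 bp, 350 bp and 1 bp less than that) sit mainly at ES levels near 80%.

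The 16 loci with the large ES excess fell into grades by their Neuro2A level: 5 were under 10%, 4 between 10 and 50% and 7 at 50% or above. Positions are on mm9. On chromosome 4, the LTR at 48696531 to 48696869 (minus strand, 339 bp long) had 91.8% in ES cells and 0.4% in Neuro2A cells. On chromosome 2, the LTR at 42606229 to 42606565 (minus strand, 337 bp) had 89.0% and 5.1%, in the same order. On chromosome 7, the LTR at 115519524 to 115519860 (minus strand, 337 bp) had 85.9% and 4.2%. These LTRs lay between the quartiles of the unpaired loci in ES cells (83.6 and 92.3%) and were almost free of methylation in Neuro2A cells. On chromosome 1, the LTR at 15357652 to 15357985 (plus strand, 334 bp) had 82.2% and 8.9%. On the X, the LTR at 39388014 to 39388339 (minus strand, 326 bp) had 67.8% and 0.7%. The X copy was also among the 11 lowest of the 606 unpaired loci in ES cells.

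The middle grade lay between 35.8 and 42.4% in Neuro2A cells. On chromosome 8 it held the LTRs at 29321484 to 29321816 (minus strand), with 86.5% in ES and 36.5% in Neuro2A cells, and at 18101565 to 18101903 (plus strand), with 81.8% and 35.8%. The LTR on chromosome 11 at 50258688 to 50259021 (plus strand) had 84.1% and 37.6%, and the LTR on chromosome 5 at 60528865 to 60529202 (plus strand) had 88.6% and 42.4%. Loci of this grade kept a level well above the first grade, and none of their ES levels was under 80%.

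The last grade, of 7 loci, lay between 52.0 and 65.6% in Neuro2A cells. The LTR on chromosome 3 at 3232293 to 3232631 (plus strand) had 90.1% in ES and 54.0% in Neuro2A cells. Chromosome 1 held LTRs at 4122261 to 4122597 (minus strand), with 85.4% and 52.0%, and at 11019649 to 11019983 (minus strand), with 77.7% and 56.2%. Chromosome 15 held LTRs at 29350924 to 29351260 (minus strand), with 82.4% and 56.4%, and at 93930892 to 93931220 (plus strand), with 82.7% and 61.3%. After them came the LTR on the Y at 322112 to 322445 (minus strand), with 85.2% and 63.6%, and the LTR on chromosome 10 at 113220046 to 113220382 (plus strand), with 86.9% and 65.6%. Once the 6.1 points between the libraries' medians were taken off, 11 of the 16 remained past the limit, and 5 of this last grade did not.

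All 16 LTRs were 326 to 339 bp long, and 9 lay on the minus strand. Their gap to the nearest other listed LTR ran from 38021 to 845770 bp, with a median of 297307 bp. The nearest LTR also had an ES excess of 20 points or more at 3 of the 16 (18.75%). This was so for 89 of all 606 unpaired IAPLTR1a_Mm loci (14.7%), and 14.9% of all 4799 loci had such an excess. The share at the 16 was thus near these shares, and it rests on few loci. Those 3 neighbours were IAPLTR2_Mm copies, on chromosomes 2, 5 and 15, with ES levels of 72.0, 62.3 and 64.4% and Neuro2A levels of 34.2, 32.0 and 21.2%. The nearest LTR to the chromosome 4 locus, also IAPLTR2_Mm, differed the other way, with 82.4% in ES and 91.5% in Neuro2A cells.

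The largest excess in Neuro2A cells was 14.9 points. It belonged to an LTR on chromosome 17 (65219265 to 65219601, plus strand) with 83.2% in ES cells and 98.1% in Neuro2A cells, the highest Neuro2A level of the 606. An LTR on chromosome 12 (71849459 to 71849796, minus strand) followed in Neuro2A level, with 85.3% in ES and 95.9% in Neuro2A cells. An LTR on chromosome 14 (120835813 to 120836149, minus strand) had 89.7% and 94.7%. These 3 loci had Neuro2A levels above the 95th percentile of the unpaired loci in ES cells, which was 94.0%, and ES levels under the ES median. The highest ES levels, 96.2, 95.5 and 95.4%, belonged to LTRs on chromosomes 1 (142938743 to 142939079, plus strand), 14 (53377587 to 53377923, minus strand) and 11 (117365931 to 117366268, plus strand). Their Neuro2A levels were 86.1, 88.6 and 84.6%.

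By the classes chosen with the design, length separated the ES levels more than strand or distance to another LTR did. This did not hold in Neuro2A cells, where the outermost distance classes, of 30 and 28 loci, were further apart than the length classes of 300 bp or more. That order turned round when the gap was taken to the nearest IAPLTR1_Mm or IAPLTR1a_Mm copy, with -2.3 points between the outermost distance classes. Lengths ran from 136 to 394 bp with a median of 338 bp, and they were concentrated on a few values: 146 loci were exactly 337 bp long. In these classes, 452 loci of 300 bp to just under 350 bp had medians of 90.4% in ES and 85.5% in Neuro2A cells, and 151 loci of 350 bp to just under 400 bp had 83.8% and 82.4%. The longer class was lower by 6.6 points in ES cells and by 3.1 points in Neuro2A cells. Its median difference between the lines was 3.4 points, against 5.35 points in the shorter class. None of the 151 longer loci had an ES excess of 20 points, against 16 of the 452 shorter ones and 14.9% of all loci in the series. The remaining 3 loci were under 300 bp, with a median of 93.1% in ES and 86.5% in Neuro2A cells.

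The relation was not a steady slope. Spearman's rho of length with level was -0.21 in ES cells and -0.073 in Neuro2A cells, over 606 loci. Taken by exact length, for the lengths with at least 10 loci, the ES medians went down and up again. They were 84.6% at 333 bp (n = 16) and 88.1% at 334 bp (n = 43), and then 91.6% at 336 bp (n = 39), 91.5% at 337 bp (n = 146), 91.45% at 338 bp (n = 94) and 91.1% at 339 bp (n = 18). They dropped to 79.1% at 350 bp (n = 15), and to 80.4% at the length 1 bp below 350 bp (n = 31). At 351, 352 and 353 bp they were back at 89.8, 90.6 and 92.2% (n = 17, 30 and 11). At 355 and 356 bp they were 80.2 and 80.95% (n = 10 and 28). Lengths that differ by 1 or 2 bp could thus be about 10 points apart in ES cells, while lengths that differ by more than 10 bp could share a level.

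**Figure D2:**
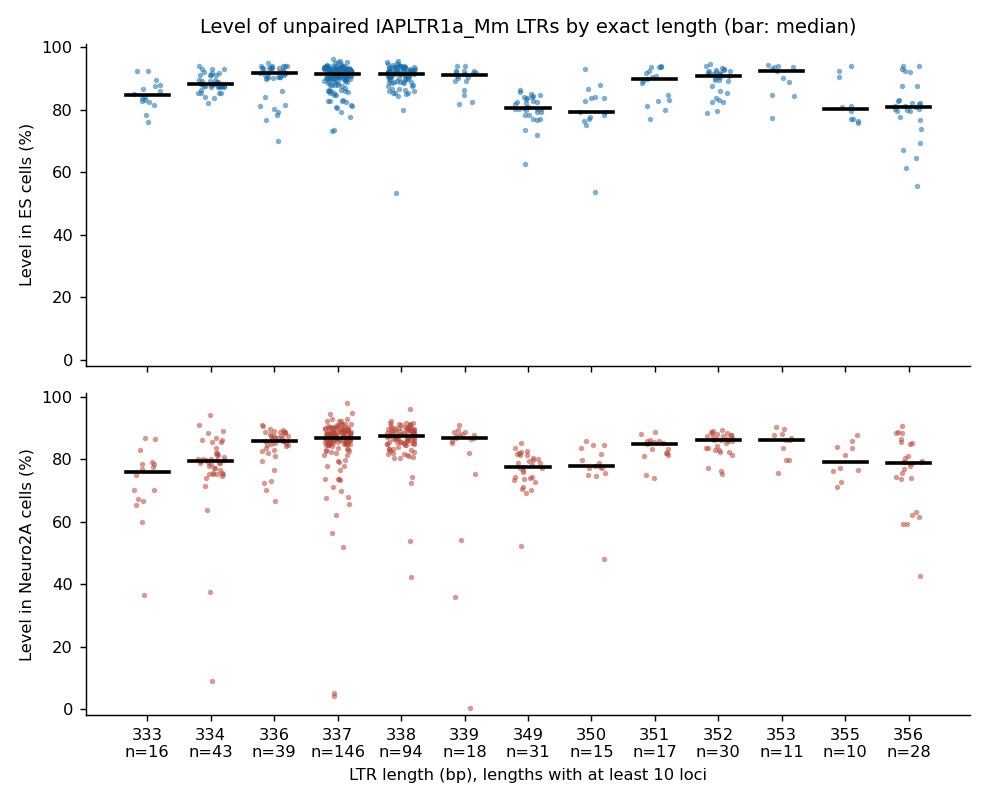
Methylation level in percent (y axis) of single unpaired IAPLTR1a_Mm LTRs in the ES library (top) and the Neuro2A library (bottom), by exact LTR length in bp (x axis, every length with at least 10 loci; n counts loci and bars are medians; points are spread sideways for visibility). The medians at 355 and 356 bp, at 350 bp and at 1 bp less than that lie near 80% in both libraries, and those at 336 to 339 and 351 to 353 bp lie near 90% in ES cells.

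The common lengths were then grouped: the run of 336 to 339 bp around the most common length, the run of 333 to 334 bp below it, and the longer lengths split at an ES median of 85%. The split used the ES levels, so the ES gap between the longer groups describes the choice. The Neuro2A levels had no direct part in it. Levels were correlated between the lines across the 606 loci (Spearman's rho 0.69), however, so the Neuro2A gaps are not independent of the choice. The 297 loci of 336 to 339 bp had medians of 91.5% in ES cells and 86.9% in Neuro2A cells, with SDs over loci of 4.56 and 10.96. The 84 loci of the lower long lengths (350, 355 and 356 bp and the length 1 bp below 350 bp) had 80.55% and 78.45%, with SDs of 7.58 and 8.54. The 58 loci of 351 to 353 bp, which lie between them in length, had 90.45% and 85.75%, with SDs of 4.86 and 4.0. In Neuro2A cells the lower long lengths thus lay 8.45 points under the 336 to 339 bp loci and 7.3 points under the 351 to 353 bp loci.

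Split by strand, the Neuro2A median of the lower long lengths was 77.4% (n = 38) against 87% at 336 to 339 bp (n = 138) on the plus strand, and 78.7% (n = 46) against 86.7% (n = 159) on the minus strand. In ES cells, where the levels had set the groups, the same medians were 80.55% against 91.6% and 80.7% against 91.4%. Per locus, ES exceeded Neuro2A by a median of 3.35 points at the lower long lengths and of 4.6 points at 336 to 339 bp. That order held on the minus strand, with 3.05 against 4.5 points, and turned round on the plus strand, with 5.3 against 4.75 points. As a ratio, the mean unmethylated share of the lower long lengths in Neuro2A cells was 1.18 times that in ES cells, against 1.59 times at 336 to 339 bp.

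Another pattern was seen at 333 to 334 bp. These 59 loci had a median of 87.7% in ES cells, 3.8 points under the 336 to 339 bp loci, and of 78.6% in Neuro2A cells, 8.3 points under them. Their median difference between the lines was 9.6 points, and their mean unmethylated share in Neuro2A cells was 1.92 times that in ES cells. At 334 bp, the more common of these lengths with 43 loci, the medians were 88.1% and 79.5%. All 43 were at 80% or above in ES cells, and 17 of the 43 were in Neuro2A cells. The run of 333 to 334 bp held 4 of the 16 loci with an ES excess of 20 points, or 6.78% of its loci (interval 1.88 to 16.5). At 336 to 339 bp it was 9 of the 297 (3.03%, interval 1.4 to 5.67), so the intervals overlap. Over all 4799 loci the share was 14.9%. The lower long lengths and those of 351 to 353 bp held none.

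Paired IAPLTR1a_Mm LTRs of the same lengths had related values. At 333 to 334 bp the median difference was 14.55 points at 42 upstream LTRs and 10.3 points at 39 downstream LTRs, beside 9.6 points at the unpaired loci. At downstream LTRs of 336 to 339 bp it was 4.4 points (n = 209). The larger difference at 333 to 334 bp was thus present at paired loci too. At the lower long lengths the 10 downstream LTRs had medians of 83.4% in ES and 80.1% in Neuro2A cells, and the 7 upstream LTRs had 82.7% and 71.9%. Those lengths were rare in pairs, with 17 loci against 84 unpaired ones. In unpaired LTRs of the related IAPLTR1_Mm subfamily, 26 loci of these lengths had 88.75% in ES and 85.1% in Neuro2A cells, above the 80.55% and 78.45% of IAPLTR1a_Mm. Sequence differences between copies of each length were not examined, since no mm9 sequence was used.

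There were 79 loci under 80% in ES cells. Of these, 34 had the lower long lengths, which made up 84 of the 606 loci and were grouped by their low ES medians, and the rest had other lengths. At 90% or above in ES cells there were 295 loci, and 9 of them had these lengths. The loci under 80% in ES cells differed little between the lines, with a median of 2.7 points and a median Neuro2A level of 74.7%. Under 70% in ES cells lay 11 loci, 7 of them of the lower long lengths. The lowest was an LTR on chromosome 2 (163481242 to 163481600, plus strand, 359 bp) with 48.7% in ES and 31.9% in Neuro2A cells. An LTR on chromosome 13 (117367727 to 117368064, minus strand, 338 bp) had 53.2% and 53.7%, and an LTR on chromosome 15 (71435215 to 71435564, plus strand, 350 bp) had 53.6% and 48.0%. At 10 of the 11 the lines differed by less than 20 points, and the X copy described above was the other. Loci under 70% in Neuro2A cells, 41 in number, had another make-up, with 9 of the lower long lengths and 15 of 336 to 339 bp.

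Strand made little difference. The 287 plus-strand loci had medians of 89.9% in ES and 85% in Neuro2A cells, and the 319 minus-strand loci had 89.6% and 84.8%. The SD over loci in Neuro2A cells was 10.2 on the plus and 11.9 on the minus strand. An ES excess of 20 points was found at 7 plus-strand (2.44%) and 9 minus-strand loci (2.82%), against 14.9% of all loci in the series. The strand gaps in level were thus 0.3 points in ES and 0.2 points in Neuro2A cells.

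By chromosome, 556 loci were autosomal, 40 lay on the X, 8 on the Y or on Y sequence without a place, and 2 on other sequence without a place. Among the 17 chromosomes with at least 20 unpaired IAPLTR1a_Mm loci, the ES median ran from 84.5% on chromosome 10 to 91.5% on the X. The median difference between the lines ran from 2.6 points on chromosome 17 to 6.25 points on the X. The X loci had a median of 85.5% in Neuro2A cells, against 84.95% on autosomes, so their larger difference came with a higher ES level (91.5 against 89.75%).

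Unpaired IAPLTR1a_Mm LTRs were spread out, with a median gap of 195205 bp to the nearest other listed LTR and quartiles of 71557 and 473534 bp. That neighbour was an IAPLTR2_Mm copy for 181 loci, an IAPLTR1a_Mm copy for 134 and an IAPLTR1_Mm copy for 132. Spearman's rho of the level with this gap was -0.019 in ES cells, 0.018 in Neuro2A cells and -0.049 for the difference, over 606 loci. At 30 loci with a neighbour within 10 kb the medians were 88.75% in ES and 82.9% in Neuro2A cells. They were 90.3% and 85% at 167 loci with a gap of 10 to 100 kb and 89.6% and 84.8% at 381 loci with a gap of 100 kb to 1 Mb. At the 28 loci more isolated than this they were 88.75% and 86.45%. The outermost classes thus had the same ES median and differed by -3.55 points in Neuro2A cells. With the gap taken to the nearest IAPLTR1_Mm or IAPLTR1a_Mm copy instead, loci within 10 kb differed from those at 1 Mb or more by -4.35 points in ES and by -2.3 points in Neuro2A cells (180 loci in both classes together). The class at 1 Mb or more had the narrowest Neuro2A spread, with an SD over loci of 4.91, and the class at 100 kb to 1 Mb the widest, with 12.3. An ES excess of 20 points occurred at 5 loci of the 10 to 100 kb class (2.99%) and 11 of the 100 kb to 1 Mb class (2.89%). These shares were alike, and the share over all loci in the series was 14.9%. Such loci occurred in neither of the outer classes, which are the smallest.

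**Figure D3:**
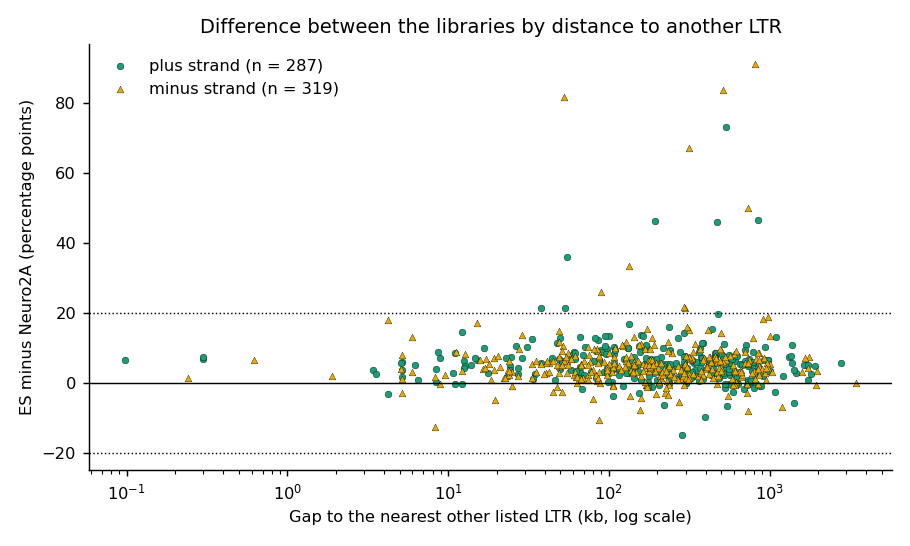
Difference between the libraries (ES minus Neuro2A, percentage points, y axis) of the 606 unpaired IAPLTR1a_Mm LTRs against the gap to the nearest other listed LTR (kb, log scale, x axis), with plus-strand loci as circles and minus-strand loci as triangles; dotted lines mark differences of 20 points either way. The 16 loci above the upper line have gaps from 38021 to 845770 bp, are of both strands, and no locus lies under the lower line.

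The most isolated loci were unremarkable in level. Outside chromosome 18, for which no positions are given here, the widest gap was 2774372 bp, at an LTR on chromosome 3 (78549324 to 78549657, plus strand) with 85.4% in ES and 79.7% in Neuro2A cells. An LTR on chromosome 6 (46628523 to 46628860) and an LTR on chromosome 16 (38714485 to 38714822), both on the minus strand, followed, with gaps of 1980156 and 1948946 bp. Their ES levels were 91.8 and 89.2%, and their Neuro2A levels were 88.4 and 89.8%.

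At the other extreme, LTRs lying next to each other could differ widely. On chromosome 16, an LTR at 62879728 to 62880064 (plus strand) lay 98 bp from an IAPLTR2_Mm LTR on the other strand. It had 92.6% in ES and 86.1% in Neuro2A cells, and its neighbour had 88.1% and 48.9%. On chromosome 5, an LTR at 13859785 to 13860122 (minus strand) lay 241 bp from an IAPLTR2a LTR and had 92.3% and 90.9%, against 71.4% and 53.2% at the neighbour. In both places the unpaired IAPLTR1a_Mm LTR had a high level in Neuro2A cells beside a neighbour near 50%. Over the 8 loci with an IAPLTR2_Mm, IAPLTR2a or IAPLTR2b copy within 10 kb, the Neuro2A level ran from 78.6 to 91.6% at the unpaired IAPLTR1a_Mm LTRs and from 48.9 to 96.4% at the neighbours. The unpaired IAPLTR1a_Mm LTR was the higher in 6 of these 8 couples in ES cells and in 5 in Neuro2A cells, so the order was not fixed. Across all 606 loci the level at the nearest neighbour carried little of the level at the locus, with a Spearman's rho of -0.037 in ES and 0.068 in Neuro2A cells.

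The 20 loci with another IAPLTR1a_Mm copy within 10 kb had a lower ES median, of 82.15%, and 10 of the 30 close loci came from 1 stretch of chromosome 7 (7758783 to 9530581). In that stretch, 6 loci had exactly the same gap of 5141 bp to a neighbour. The 4 loci of 351 bp there had ES levels of 83.2 to 89.8%, and the 5 loci of 356 bp had 77.6 to 81.1%. At these few loci the lengths did not overlap in ES level, and they stood in the same order as over the genome. The same loci also count in the genome-wide medians, so this is no separate check of the length pattern. The remaining locus, of 352 bp, had 79.0%, below the genome-wide median of its length. Whether copies with a repeated spacing share their sequence was not tested, and they may not be independent loci. Leaving out chromosome 7 gave Neuro2A medians of 78.3% at the lower long lengths and 86.8% at 336 to 339 bp. The ES medians were 80.7% and 91.5%, but ES levels had been used to split the longer lengths.

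Few loci were unpaired by a narrow margin. The 314 IAPLTR1a_Mm pairs had gaps of 1006 to 7836 bp, with a median of 5899 bp. Just inside the limits, the pair 1006 bp apart on the X had 93.8 and 86.9% in ES and 83.5 and 88.2% in Neuro2A cells, and the pair 7836 bp apart on chromosome 1 had 85.5 and 88.8% in ES and 78.8 and 89.5% in Neuro2A cells. Just outside, neighbours 300 bp apart on the X (23832615 to 23832952 and 23833253 to 23833609, plus strand) had 93.7 and 75.8% in ES and 86.9 and 68.3% in Neuro2A cells. Neighbours 8289 bp apart on chromosome 1 had 81.1 and 70.1% in ES and 79.5 and 82.7% in Neuro2A cells, and neighbours 8435 bp apart on chromosome 17 had 91.3 and 78.7% and then 87.3 and 78.4%. Another 4 loci had a same-strand IAPLTR1a_Mm neighbour within the limits that was already part of a pair.

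Set beside paired LTRs of the same subfamily, unpaired loci lay between the upstream and downstream ends in the median. Upstream LTRs had 88.7% in ES and 83.25% in Neuro2A cells, unpaired ones 89.8% and 84.95%, and downstream ones 91.65% and 86.8%. The order of unpaired and upstream loci in ES cells turned round on means (a gap of -0.89 points in place of 1.1), so it is not a stable difference. The groups differed more in spread. In ES cells the SD over loci was 6.59 for unpaired, 4.11 for upstream and 3.24 for downstream LTRs. In Neuro2A cells it was 11.1, 17.2 and 5.29. Of these 3 groups, unpaired loci were the most varied in ES cells, and in Neuro2A cells they lay between the ends.

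**Figure D4:**
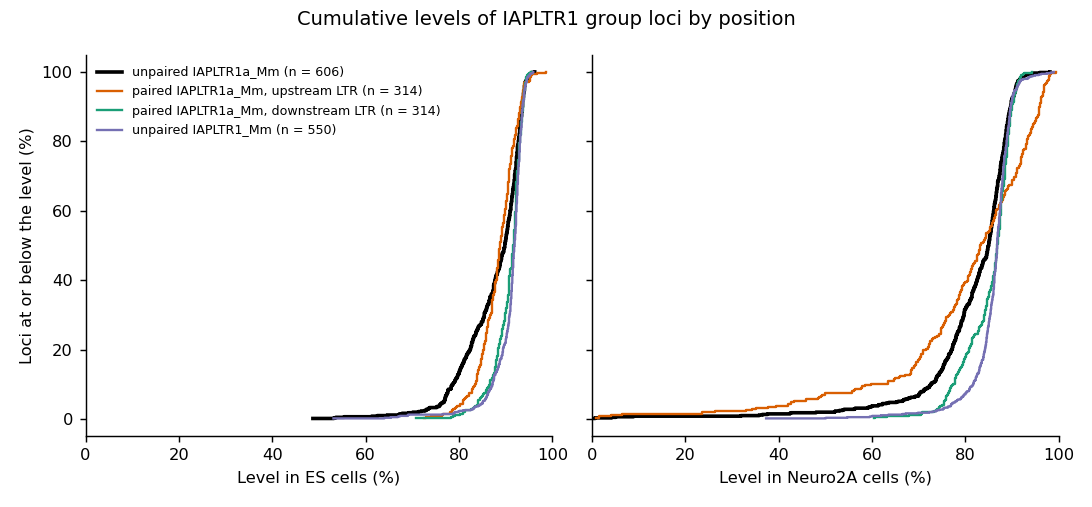
Cumulative share of loci (y axis, percent) at or below a methylation level (x axis, percent) in the ES library (left) and the Neuro2A library (right), for unpaired IAPLTR1a_Mm LTRs (black), the upstream and downstream LTRs of IAPLTR1a_Mm pairs and unpaired IAPLTR1_Mm LTRs. The black curve begins lowest in ES cells, at 48.7%. In Neuro2A cells it lies between the curves of the upstream and downstream LTRs at levels of 50, 70 and 80%. At 90% it lies above both, with 7.92% of unpaired loci at 90% or above, against 10.2% of downstream and 31.85% of upstream LTRs.

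The upstream ends were spread in both directions in Neuro2A cells, and unpaired loci mainly downwards. At 95% or above in Neuro2A cells were 44 of 314 upstream LTRs (14.01%), 0 of 314 downstream LTRs and 2 of 606 unpaired LTRs (0.33%). Under 50% were 24 upstream LTRs (7.64%), 0 downstream LTRs and 12 unpaired LTRs (1.98%). An ES excess of at least 20 points was found at 49 upstream LTRs (15.6%), 2 downstream LTRs (0.64%) and the 16 unpaired LTRs (2.64%). In ES cells, levels under 80% were found at 79 unpaired (13.0%), 12 upstream (3.82%) and 4 downstream LTRs (1.27%). Of all 4799 loci, 4.88% were at 95% or above and 8.77% under 50% in Neuro2A cells. An ES excess of at least 20 points was found at 14.9% of all loci, and 23.1% were under 80% in ES cells. The upstream shares under 50% in Neuro2A cells and with an ES excess were thus near those of all loci. Within the common lengths of 336 to 339 bp, the unpaired ES median of 91.5% stood nearer to the downstream LTRs (92.0%, n = 209) than to the upstream LTRs (88.9%, n = 197). There the unpaired loci were 2.6 points above upstream and 0.5 points under downstream LTRs in ES cells. In Neuro2A cells they were as far from either end, 0.7 points above upstream and 0.7 points under downstream LTRs. Over all lengths the gap to the downstream LTRs was 1.85 points in each line, so it was smaller within 336 to 339 bp. In ES cells it was not smaller at the lower long lengths, with medians of 80.55% at unpaired (n = 84) and 83.4% at downstream LTRs (n = 10).

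Unpaired loci of the IAPLTR1_Mm subfamily, 550 in number, were higher and more uniform. Their medians were 91.9% in ES cells and 86.8% in Neuro2A cells, with SDs over loci of 4.04 and 5.18, and 3 of them had an ES excess of 20 points (0.55%). The median gaps were 2.1 and 1.85 points, and 0.7 and 0.3 points at 336 to 339 bp. With 1 library per line these gaps have no replicate check.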

How the data were processed

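Bisulfite libraries enriched by PCR for IAP LTRs and adjoining genome were made from genomic DNA of each line, per the labels' protocols. The deposited score of each LTR, per the file headers, is its methylation level times 1000, and dividing by 10 gave percent. The build is mm9, per the file headers, and the submitters' processing notes list Bowtie2. The caller and read filters are not given in the sources. Both libraries list the same 4799 loci. For 1 locus of the ES library, not among the 606, the coordinate columns differed from those in its name, which were used. Starts were read as counted from 0 and are printed counted from 1, and length is end minus start. No mm9 genome or annotation was used, so genes, exons and sequences are not given.

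Levels were summarised by medians, means and SDs over loci with pandas 2.3.3, and exact intervals came from scipy 1.17.1. No p-value was computed. Pairing and counting were tested on simulated loci without noise or crowded copies, which checked the code only. The members and groupings were chosen with earlier results of these data known. Named are loci with a difference of 20 points or more, the 3 lowest and highest in each library and those with the 3 widest and narrowest gaps, outside chromosome 18. Loci at the pair limits, the chromosome 7 stretch, neighbours and length bands were picked after values were seen. The alternatives were other limits, means, centring, subsets of loci and other pair rules.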

Additional observations from a re-analysis of the deposited data

How the results depend on the processing

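No paired analysis was possible because each line has 1 library. Of the recomputed summary values, 106 did not leave the interval around the reported value (counts: a factor of 1.5), 24 left it and 1 was reversed. Gaps between groups whose interval held 0 could change sign and still count among the 106. In the difference between the lines, the strand gap went from 0.7 to -0.029 points on means. The gap to upstream LTRs there went from -0.3 to 1.1 points at 336 to 339 bp. Autosomes only, 1 locus per 100 kb and other pair limits changed none of the set's medians, shares or counts beyond those intervals or that factor. The same held for leaving out loci under 300 bp. Leaving out loci at 0 could change nothing, because none of the 606 was at 0. Joining IAPLTR1_Mm and IAPLTR1a_Mm when pairs are taken again gave 606 loci, with every value identical. These unchanged values count among the 106. On means the ES level was 87.5%, the Neuro2A level 81.6% and the difference 5.87 points. Centring each library on its median turned the median difference to -1.2 points, by construction, and gave 1 locus higher in Neuro2A cells by 20 points in place of 0. It also took 5 of the 16 loci with a large ES excess under 20 points, to 15.2 to 19.9 points. Limits of 10 and 40 points gave 80 and 9 loci higher in ES cells, and 10 points gave 3 higher in Neuro2A cells. Limits of 90 and 70% gave shares of 48.7 and 98.2% in ES and 7.92 and 93.2% in Neuro2A cells. On means the length classes differed by 3.10 points in their difference between the lines, in place of 1.95. On means the unpaired loci stood -0.89 points from upstream LTRs in ES cells, -3.14 and -3.50 points from downstream LTRs in ES and Neuro2A cells, and -3.36, -4.28 and 0.92 points from unpaired IAPLTR1_Mm in ES, Neuro2A and the difference. At 336 to 339 bp only, chosen after the data were seen, these medians were 2.6 points from upstream LTRs in ES cells, -0.5 and -0.7 from downstream LTRs, and -0.7 and -0.3 from unpaired IAPLTR1_Mm. On means the 333 to 334 bp loci lay -2.73 points from the 336 to 339 bp loci in ES cells, in place of -3.8. Without chromosome 7, with 1 locus per 100 kb and on either strand alone, also chosen after the data were seen, the gaps between length groups stayed within their intervals, but on the plus strand the median difference between the lines at the lower long lengths stood 0.55 points from that at 336 to 339 bp in place of -1.25, a change of sign. Causes other than centring were not tested. With no depth given, the precision of a single locus cannot be stated.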
